A study of Mus musculus with 4 samples.

Results

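Hypoxia-induced genes are genes whose transcription rises when a cell is short of oxygen. 10 of them were followed here in mouse embryos at embryonic day 9.0 (E9.0): Egln1, Egln3, Ddit4, Ndrg1, Bnip3, Car9, P4ha1, Ankrd37, Vegfa and Adm. Their members on the array were all probe sets (groups of short probes that report one transcript) to which the platform annotation gave one of these symbols alone. This gave 19 probe sets of the 45037 tested, with 1 probe set for each of 4 genes and several for each of the other 6 genes.

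The study compared whole embryos homozygous for a mutation of Gcnf, the older name of the orphan nuclear receptor gene Nr6a1, with wildtype embryos. 2 Gcnf-/- and 2 wt embryos were profiled at E9.0, each on its own Affymetrix mouse expression array, and the values are log2 signals. The methods place the mutant line on a C57BL/6 background (printed there as C56BL/6), describe genotyping from the yolk sac and extraction from each embryo, and give a collection window that starts at E9.0. No transgene or Cre was used for these embryos, so the mutation was present in all of their cells from the start, and both genotypes were otherwise untreated. The paper, citing earlier work, states that embryos lacking Nr6a1 develop more slowly from early somite stages on. It adds that they do not get through embryonic turning and die shortly after the age profiled here. The sources used here give no somite count, litter or scan date, so a difference in developmental progress cannot be told apart from genotype. A whole embryo is a mixture of cell types, in which fewer cells of a type and less RNA per cell cannot be told apart.

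In oxygenated cells the prolyl hydroxylases encoded by the Egln genes mark the alpha subunits of the hypoxia-inducible factor (HIF), and the Vhl ubiquitin ligase then has them destroyed. When oxygen is scarce the alpha subunit, from Hif1a or Epas1, escapes, pairs with Arnt and binds short DNA elements whose core reads ACGTG or GCGTG. The early post-implantation embryo develops at low oxygen, and HIF is needed there for blood vessels, blood cells and the heart. Several members also answer other signals, such as p53, amino acid shortage or glucocorticoids, so their levels are not a direct reading of oxygen or of HIF.

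Most of the hypoxia-induced genes were higher in Gcnf-/- embryos than in wt embryos, led by Ddit4 at 4.89-fold. A probe set is said here to have risen when the adjusted p of limma's moderated test, with Benjamini-Hochberg adjustment over all 45037 probe sets, was 0.05 or lower, and is counted as called when it also differed by at least 2-fold. 5 of the 19 member probe sets rose, 1 each for Ddit4, Egln3, Ndrg1, P4ha1 and Bnip3, where 0.719% of all probe sets did. 2 of the 19, for Ddit4 and Egln3, were called higher, where 0.304% of all probe sets were, and 0 were called lower. By unadjusted p under 0.05 the count was 15, all higher (9.83% of all probe sets). The mean was above wt for 18 of the 19 (47.1% of all probe sets), and both Gcnf-/- embryos lay above both wt embryos for 17 of the 19 (23.5% of all probe sets). The median log2 fold change of the 19 was 0.65, against -0.01 for all probe sets. The exception was Vegfa, whose probe sets had log2 fold changes of 0.03 and -0.00. The 19 probe sets stand for 10 genes, with 5 of them from Ndrg1, and are not separate members. The members were chosen with earlier results of these data known, so these shares are no independent comparison with all probe sets. The calls for Ddit4 and Egln3 did not hold when any 1 of the 4 arrays was left out, although both genes stayed at least 2-fold higher for their called probe sets. With 2 embryos in each group, the smallest two-sided p that an exact permutation test of a single gene allows is 0.333, and the tests rest on limma's sharing of the spread across probe sets.

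**Figure D1:**
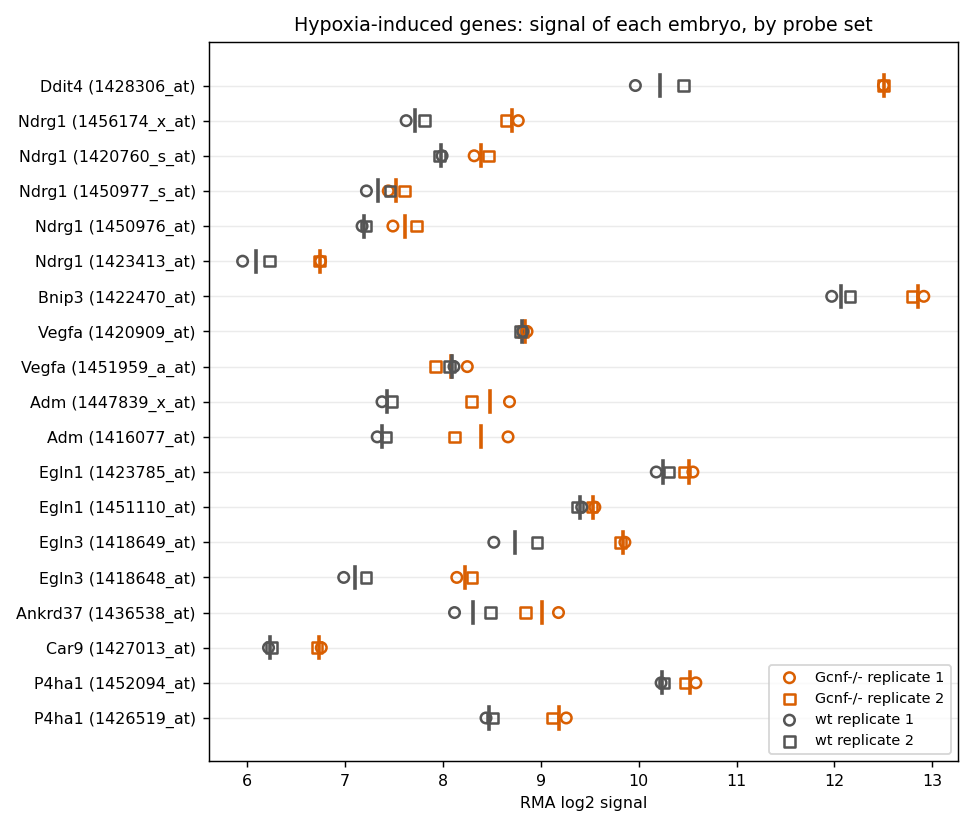
RMA log2 signal (x axis) of the 19 member probe sets (rows) in each of the 4 embryos: Gcnf-/- replicates 1 and 2 in orange, wt replicates 1 and 2 in grey, with vertical ticks at the group means. The orange points lie to the right of the grey ones in 17 rows and overlap them in 1 Ndrg1 row and 1 Vegfa row. Positions are comparable along a row, not between rows.

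Promoter sequences are shown for the genes that rose and were matched in the RefSeq promoter table (GRCm38.p6), as the 250 bases before the annotated start site, 5′ to 3′ on the strand of the gene, to show where the HIF core letters stand in them. Capitals mark ACGTG or GCGTG on either strand, so that CACGT and CACGC are the same letters read from the other strand. The windows are Ddit4 at chr10:59951771-59952020 on the minus strand, Egln3 at chr12:54203875-54204124 on the minus strand, Bnip3 at chr7:138909507-138909756 on the minus strand and P4ha1 at chr10:59323046-59323295 on the plus strand.
Ddit4: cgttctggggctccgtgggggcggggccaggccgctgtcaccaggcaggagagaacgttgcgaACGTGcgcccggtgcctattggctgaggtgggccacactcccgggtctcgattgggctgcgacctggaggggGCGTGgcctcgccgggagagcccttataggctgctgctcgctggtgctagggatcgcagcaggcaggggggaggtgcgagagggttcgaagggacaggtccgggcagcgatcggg
Egln3: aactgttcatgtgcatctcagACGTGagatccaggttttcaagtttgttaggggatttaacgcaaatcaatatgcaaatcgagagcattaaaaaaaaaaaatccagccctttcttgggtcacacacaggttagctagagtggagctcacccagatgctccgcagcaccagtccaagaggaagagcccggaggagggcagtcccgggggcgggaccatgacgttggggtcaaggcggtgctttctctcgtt
Bnip3: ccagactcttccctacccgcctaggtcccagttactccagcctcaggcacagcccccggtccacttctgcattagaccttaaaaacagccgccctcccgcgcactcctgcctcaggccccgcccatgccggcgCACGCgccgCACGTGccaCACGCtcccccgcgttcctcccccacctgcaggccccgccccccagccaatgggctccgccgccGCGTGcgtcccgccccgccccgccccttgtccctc
P4ha1: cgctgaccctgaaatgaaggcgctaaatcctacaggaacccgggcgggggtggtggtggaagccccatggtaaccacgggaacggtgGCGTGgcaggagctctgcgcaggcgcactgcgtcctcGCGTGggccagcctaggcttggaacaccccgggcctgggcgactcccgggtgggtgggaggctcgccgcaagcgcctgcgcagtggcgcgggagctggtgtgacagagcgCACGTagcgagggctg

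The Ddit4 window held ACGTG 187 bases and GCGTG 115 bases before the start site. The Egln3 window held a single ACGTG, 229 bases before the start site. In the Bnip3 window 5 matches fell between 117 and 35 bases before the start site, of which 2 share the palindrome CACGTG, which holds ACGTG on both strands. The P4ha1 window held 3 matches, at 163, 126 and 16 bases.
The table gave 10 windows for 9 of the 10 genes, Vegfa having 2. At least 1 of the motifs stood in 9 of the 10 windows, with ACGTG in 8 and GCGTG in 7. Among all 21262 windows of protein-coding genes 44.0% held at least 1 of the motifs, 17.8% held ACGTG and 33.8% held GCGTG. The member windows had a mean GC content of 64.8%, against 55.5% for all protein-coding windows, and both motifs contain CG. The window without a match was that of the upstream Vegfa start site (chr17:46032378-46032627, minus strand). The Vegfa window with both motifs (chr17:46025164-46025413) lies downstream of that start site. Whether either start site is used in these embryos was not tested. These letter matches describe the sequence only; binding was not measured.

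The HIF hydroxylases were taken first, because they are both regulators of the pathway and its targets. Egln3 (PHD3) is a hydroxylase whose own gene is strongly HIF-induced. Its probe set 1418648_at measured 8.14 and 8.30 in Gcnf-/- embryos, against 6.98 and 7.21 in wt embryos. The groups lay apart, with a log2 fold change of 1.12 ± 0.11 (moderated SE, n = 2 each, adjusted p = 0.0335), or 2.17-fold. The second Egln3 probe set, 1418649_at, measured 9.86 and 9.81 in Gcnf-/- embryos, against 8.52 and 8.96 in wt embryos. Its difference was nearly equal at 1.10 ± 0.15 (2.14-fold), but the wt embryos were farther apart and the adjusted p was 0.0554. The 2 Egln3 probe sets thus differed by 0.02 in log2 fold change, and stood on opposite sides of the threshold.

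Egln1 (PHD2), the main hydroxylase that sets HIF levels in oxygenated cells, moved less. Its probe set 1423785_at measured 10.55 and 10.47 in Gcnf-/- embryos, against 10.18 and 10.31 in wt embryos, a log2 fold change of 0.27 (95% interval 0.06 to 0.48, adjusted p = 0.173). The other, 1451110_at, measured 9.55 and 9.52 in Gcnf-/- embryos, against 9.42 and 9.37 in wt embryos, a log2 fold change of 0.14 (95% interval -0.03 to 0.32, adjusted p = 0.327). The intervals of both Egln1 probe sets end below a 2-fold difference, while neither passed the test.

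Ddit4 (REDD1) restrains growth by holding back mTORC1, the kinase complex that couples nutrients to protein synthesis. It measured 12.50 and 12.50 in Gcnf-/- embryos, against 9.97 and 10.46 in wt embryos. The mutant embryos were alike to the second decimal, and the gap of 2.04 from the lower Gcnf-/- embryo to the higher wt embryo exceeded the distance between the wt embryos. The log2 fold change was 2.29 ± 0.17 (moderated SE, n = 2 each, 95% interval 1.86 to 2.72, adjusted p = 0.0174). This placed Ddit4 25th among the rises of all 45037 probe sets. Without wt replicate 1 the log2 fold change was 2.04 and without wt replicate 2 it was 2.54, with adjusted p of 0.118 and 0.0517. Without either Gcnf-/- replicate it was 2.29 (adjusted p 0.204 without replicate 1 and 0.206 without replicate 2).

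Ndrg1, a cytoplasmic protein of stressed and differentiating cells that peripheral nerve myelin depends on, was measured by 5 probe sets that did not move alike. Probe set 1456174_x_at measured 8.77 and 8.65 in Gcnf-/- embryos, against 7.62 and 7.81 in wt embryos. It rose by a log2 fold change of 0.99 ± 0.10 (1.99-fold, adjusted p = 0.0335), just under the 2-fold threshold. Its suffix marks probes that may also match other transcripts, which was not resolved here. Of the other 4 Ndrg1 probe sets, 1423413_at measured 6.75 and 6.74 in Gcnf-/- embryos, against 5.95 and 6.23 in wt embryos (log2 fold change 0.65, adjusted p = 0.0729). The lowest difference was that of 1450977_s_at, with 7.44 and 7.61 in Gcnf-/- embryos, against 7.22 and 7.46 in wt embryos (log2 fold change 0.19, adjusted p = 0.427), and there the groups overlapped. Probe sets 1420760_s_at and 1450976_at lay in between, at 0.42 and 0.41, with adjusted p of 0.0924 and 0.122. The Ndrg1 probe sets spanned 0.80 in log2 fold change, the widest span of the 6 genes with several probe sets.

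Bnip3, a receptor in the outer mitochondrial membrane that marks mitochondria for removal by autophagy, measured 12.91 and 12.79 in Gcnf-/- embryos, against 11.97 and 12.16 in wt embryos. It rose by a log2 fold change of 0.79 ± 0.10 (1.73-fold, adjusted p = 0.0452), with all 4 embryos in the upper part of the signal range. Car9, a carbonic anhydrase of the cell surface that helps cells in acidic, oxygen-poor tissue keep their pH, measured 6.76 and 6.71 in Gcnf-/- embryos, against 6.22 and 6.25 in wt embryos. Its replicates were close together, yet the log2 fold change of 0.50 ± 0.07 (1.42-fold) missed the threshold at an adjusted p of 0.0535. The mean Car9 signal was below the median of all probe sets (6.84).

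P4ha1 encodes the catalytic subunit of the prolyl hydroxylase that stabilises collagen. Probe set 1426519_at measured 9.26 and 9.12 in Gcnf-/- embryos, against 8.44 and 8.51 in wt embryos, and rose by a log2 fold change of 0.72 ± 0.08 (1.64-fold, adjusted p = 0.0426). The other P4ha1 probe set, 1452094_at, measured 10.58 and 10.47 in Gcnf-/- embryos, against 10.23 and 10.26 in wt embryos, a log2 fold change of 0.28 ± 0.08 (adjusted p = 0.140). Both had groups that did not overlap, but their differences were 0.43 apart, so the size of the P4ha1 difference depends on the probe set. Ankrd37, an ankyrin repeat protein known mainly as a HIF target, measured 9.18 and 8.84 in Gcnf-/- embryos, against 8.12 and 8.49 in wt embryos. Its replicates lay far apart in either group, though the groups did not overlap, and the log2 fold change of 0.71 ± 0.17 had an adjusted p of 0.120.

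The secreted members, both of which act on blood vessels, parted ways. Adm, the precursor of the vasodilator peptide adrenomedullin, measured 8.68 and 8.29 in Gcnf-/- embryos, against 7.38 and 7.48 in wt embryos on probe set 1447839_x_at. The second Adm probe set, 1416077_at, measured 8.66 and 8.12 in Gcnf-/- embryos, against 7.33 and 7.42 in wt embryos. Gcnf-/- replicate 1 was the higher mutant embryo on both, and the groups lay well apart. The log2 fold changes of Adm were 1.06 ± 0.14 (2.08-fold, adjusted p = 0.0524) and 1.02 ± 0.19 (adjusted p = 0.0833), so Adm differed by over 2-fold without passing the test.

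Vegfa, the growth factor that embryonic blood vessels require, measured 8.86 and 8.82 in Gcnf-/- embryos, against 8.81 and 8.79 in wt embryos on probe set 1420909_at. The log2 fold change was 0.03 (95% interval -0.14 to 0.21, adjusted p = 0.838). On 1451959_a_at Vegfa measured 8.25 and 7.92 in Gcnf-/- embryos, against 8.11 and 8.07 in wt embryos, and the wt embryos fell between the mutant ones (95% interval -0.31 to 0.31, adjusted p = 0.995). Both Vegfa intervals include 0 and end well below a 2-fold difference, while the Adm intervals start at 0.69 and 0.55. The difference between Vegfa and the other members was not tested.

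**Figure D2:**
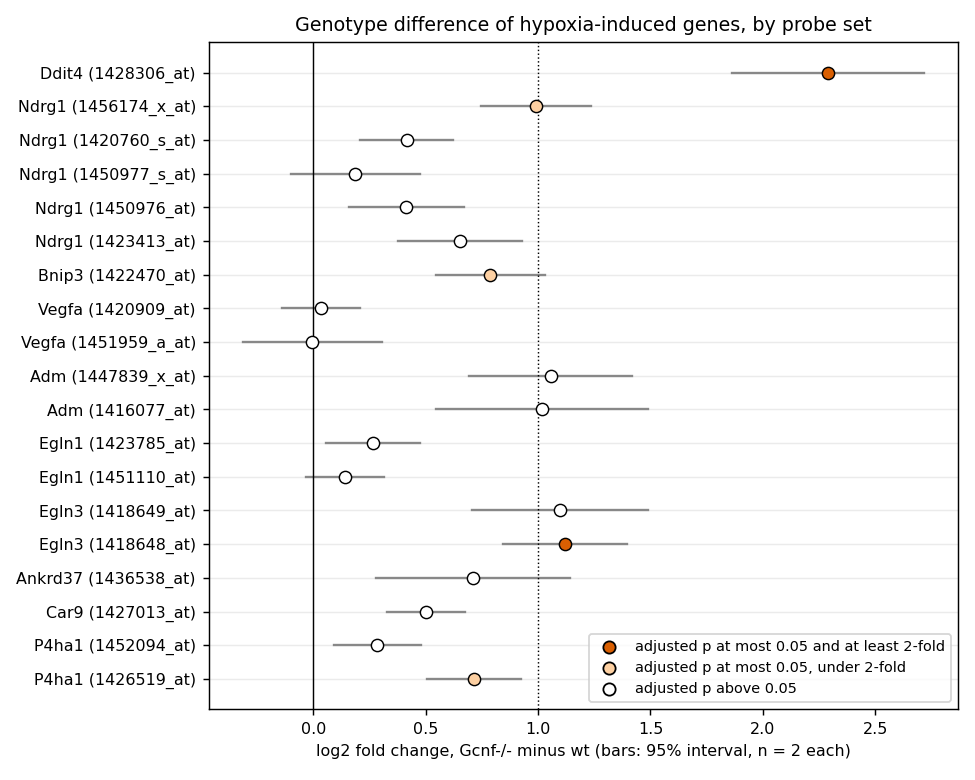
Log2 fold change of each member probe set, Gcnf-/- minus wt (x axis), with its 95% interval from limma's moderated standard error (n = 2 each). The solid line marks no difference and the dotted line a 2-fold difference. Filled dark points (Ddit4 and 1 of Egln3) passed both thresholds, pale points (Ndrg1, Bnip3 and P4ha1, 1 probe set each) passed the adjusted p alone, and both Vegfa points lie at the line of no difference.

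Within a group, most member probe sets differed in the same direction between the replicates. A single pair of embryos per group cannot show that they vary together. Wt replicate 1 was below wt replicate 2 on 15 of the 19 (49.4% of all probe sets), and Gcnf-/- replicate 1 was above Gcnf-/- replicate 2 on 14 of the 19 (47.3% of all probe sets). The embryo with the highest values was thus often Gcnf-/- replicate 1 and that with the lowest wt replicate 1. Wt replicate 1 was also the only female embryo by Xist, the RNA of the inactive X chromosome, which measured 6.44 and 6.61 in Gcnf-/- embryos, against 13.11 and 6.68 in wt embryos. It was the lowest of the 4 arrays on the 18S ribosomal RNA control probe sets too, which averaged 10.83 and 10.74 in Gcnf-/- embryos, against 9.45 and 9.99 in wt embryos. Leaving wt replicate 1 out lowered the log2 fold change to 1.01 for the called probe set of Egln3, to 0.88 for its second probe set, and to 0.70 for Bnip3. All 19 member probe sets remained above wt replicate 2 alone in their Gcnf-/- mean. The part of sex and of ribosomal RNA in the member values was not tested.

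**Figure D3:**
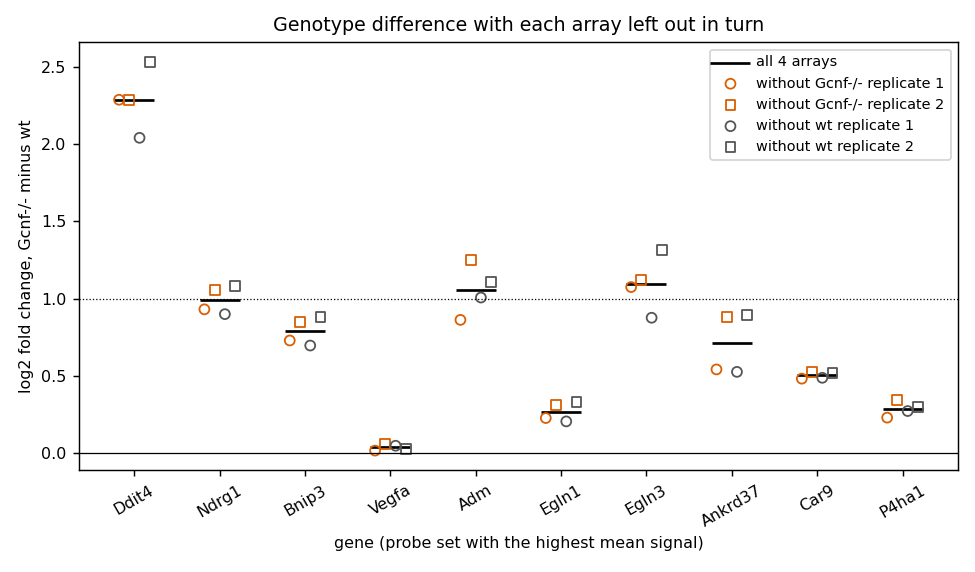
Log2 fold change, Gcnf-/- minus wt (y axis), of the brightest probe set of each member gene with all 4 arrays (black bars) and with each array left out (symbols). Ddit4 stayed between 2.04 and 2.54 and Vegfa close to 0, while the brightest Egln3 probe set ran from 0.88 without wt replicate 1 to 1.32 without wt replicate 2; the dotted line marks a 2-fold difference.

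The genes around the members were taken from lists of the pathway and of other pathways that some members answer to, with each gene represented by its brightest probe set among 18193 genes. On that scale the 10 members had a median log2 fold change of 0.75 and 3 of them rose (1.02% of all genes did), with 10 of 10 above wt (47.2% of all genes) and 1, Ddit4, called (0.423% of all genes were called higher and 0.121% lower). The HIF subunits, partners and regulators showed no such shift: 10 of 21 were above wt, the median was -0.03, and 1 rose. That one was Epas1 (HIF-2 alpha), prominent in endothelium, which measured 11.33 and 11.41 in Gcnf-/- embryos, against 10.74 and 10.64 in wt embryos (log2 fold change 0.68 ± 0.08, adjusted p = 0.0417). Hif1a itself measured 12.18 and 12.15 in Gcnf-/- embryos, against 12.39 and 12.28 in wt embryos (log2 fold change -0.17, adjusted p = 0.294). Of the 21 genes of this list, 3 were higher and 5 lower by limma's unadjusted p under 0.05. Among all genes 11.9% passed it in either direction alone. HIF is controlled mainly through the stability of its protein, which an array does not measure.

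Of 35 other reported HIF targets measured, 24 were above wt (47.2% of all genes), the median log2 fold change was 0.20, and 1 rose (1.02% of all genes). This was Mxi1, an antagonist of Myc, with 9.86 and 9.83 in Gcnf-/- embryos, against 8.92 and 9.11 in wt embryos (log2 fold change 0.83 ± 0.09, adjusted p = 0.0397). By limma's unadjusted p under 0.05, 14 of the 35 were higher and 3 lower, where 11.9% of all genes passed in either direction alone. Targets of glucose uptake and glycolysis were above wt for 14 of 16, with a median of 0.13, and 0 passed the adjusted p by limma (6, all higher, had an unadjusted p under 0.05, as had 11.9% of all genes in that direction; 0.374% of all genes fell by the adjusted p). Within this list Aldoc had the highest log2 fold change, 1.12 (adjusted p = 0.0582), with 9.51 and 9.66 in Gcnf-/- embryos, against 8.24 and 8.69 in wt embryos. The abundant glycolytic transcripts moved little, such as Slc2a1, the main embryonic glucose transporter, at 0.11, Pgk1 at 0.06, Ldha at 0.05 and Slc2a3 at -0.13. These transcripts were at the bright end of the signal range, with up to 14.34 in a Gcnf-/- embryo for Ldha. The members were picked with results of these data known, so their higher median is no independent comparison with the other targets.

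**Figure D4:**
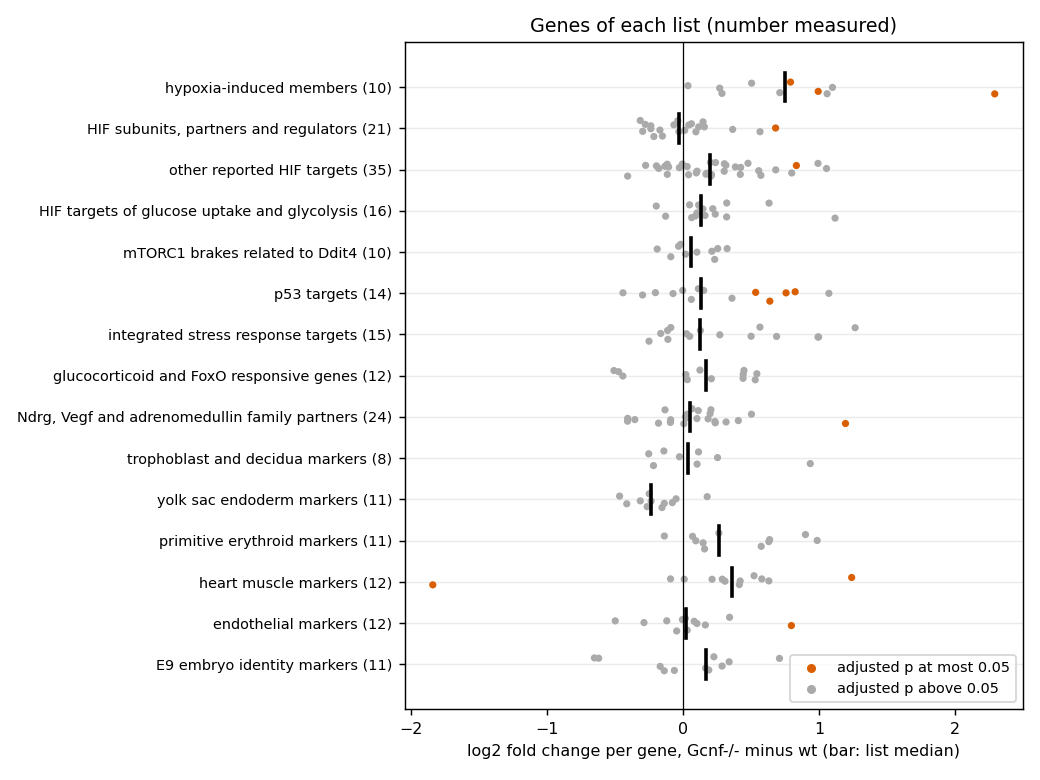
Log2 fold change per gene, Gcnf-/- minus wt (x axis), for the members and 14 other lists (rows, number of measured genes in brackets), 1 point per gene by its brightest probe set and a bar at the median. Orange points had an adjusted p of 0.05 or lower. The median was 0.75 for the members, 0.20 for other HIF targets and -0.03 for HIF subunits, partners and regulators.

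The members' relatives and binding partners moved in both directions. Of 24 such genes measured, 17 were above wt (47.2% of all genes). By limma's unadjusted p under 0.05, 6 were higher and 3 lower, where 11.9% of all genes passed in either direction alone. Their median was 0.05 in log2 fold change, and 0.03 without wt replicate 1, 0.08 without Gcnf-/- replicate 1 and 0.09 without wt replicate 2. Among them 1 was called higher (0.423% of all genes). That gene was Ndrg2, a relative of Ndrg1, with 7.97 and 8.05 in Gcnf-/- embryos, against 6.68 and 6.95 in wt embryos (log2 fold change 1.19 ± 0.11, 2.28-fold, adjusted p = 0.0309). Among the partners of Adm, the receptor Calcrl had a log2 fold change of -0.41 (adjusted p = 0.102) and its co-receptor Ramp2 one of 0.40 (adjusted p = 0.0903). The Vegfa receptors Kdr and Flt1 had log2 fold changes of 0.10 and 0.03 (adjusted p = 0.482 and 0.867).

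Members also respond to signals other than low oxygen, and the lists for these were mixed. Of 14 p53 targets 4 rose, where 1.02% of all genes did, and the median of the list was 0.13. Those 4 were Cdkn1a, Btg2, Phlda3 and Trp53inp1, with log2 fold changes of 0.82, 0.64, 0.76 and 0.53. By limma's unadjusted p under 0.05, 6 of the 14 were higher and 2 lower, where 11.9% of all genes passed in either direction alone. Cdkn1a, an inhibitor of the cell cycle, measured 9.99 and 10.12 in Gcnf-/- embryos, against 9.21 and 9.25 in wt embryos (adjusted p = 0.0335). Of the other mTORC1 brakes 6 of 10 were above wt with a median of 0.06, among integrated stress response targets 10 of 15 with a median of 0.13, and among glucocorticoid and FoxO responsive genes 9 of 12 with a median of 0.16. In these lists 0 genes passed the adjusted p by limma. By unadjusted p under 0.05, which 11.9% of all genes passed in either direction alone, the mTORC1 brakes had 3 higher and 0 lower, the integrated stress response targets 6 higher and 1 lower, and the glucocorticoid and FoxO responsive genes 6 higher and 3 lower. These medians were small and not stable: that of the mTORC1 brakes was 0.00 without wt replicate 2, that of the integrated stress response targets 0.07 without Gcnf-/- replicate 1, and that of the p53 targets 0.25 on brighter probe sets. Single integrated stress response targets ran from -0.25 to 1.26 in log2 fold change (Trib3, adjusted p = 0.0981 by limma), with 5 of 15 below wt. The p53 targets ran from -0.44 to 1.07 (Pmaip1, adjusted p = 0.0507 by limma), with 5 of 14 below wt. Ddit4 is known to answer to p53, the integrated stress response and glucocorticoids, whose part in its rise was not tested.

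Markers of cell types were measured beside these values, since the makeup of an embryo can move a gene. Primitive erythroid markers were above wt for 10 of 11, where 47.2% of all genes were. By limma's unadjusted p under 0.05, 6 of them were higher and 0 lower, where 11.9% of all genes passed in either direction alone. Their mean log2 signal was 11.15 and 11.06 in Gcnf-/- embryos, against 10.61 and 10.81 in wt embryos. Heart muscle markers were above wt for 10 of 12, with a mean of 11.42 and 11.29 in Gcnf-/- embryos, against 11.00 and 11.26 in wt embryos. By the same unadjusted p 6 were higher and 1 lower. Myl3 was called higher (log2 fold change 1.24) and Nppa lower (-1.84), where 0.423% of all genes were called higher and 0.121% lower. Yolk sac endoderm markers were below wt for 10 of 11, and averaged 12.67 and 12.56 in Gcnf-/- embryos, against 12.87 and 12.77 in wt embryos. By the same unadjusted p 0 were higher and 4 lower. Of 12 endothelial markers 7 were above wt, with a median log2 fold change of 0.02. They averaged 8.99 and 8.96 in Gcnf-/- embryos, against 8.94 and 8.92 in wt embryos. By the same unadjusted p 2 were higher and 2 lower. Cldn5 rose (0.79, adjusted p = 0.0335), while Emcn and Tie1 had log2 fold changes of -0.50 and -0.29. Trophoblast and decidua markers averaged 6.32 and 6.44 in Gcnf-/- embryos, against 6.27 and 6.29 in wt embryos. Of these 4 of 8 were above wt, and by the same unadjusted p 2 were higher and 0 lower. Tpbpa, which defines spongiotrophoblast, was at 4.01 and 4.32 in Gcnf-/- embryos, against 3.98 and 4.14 in wt embryos. The brightest gene of that list, Dcn, which other connective tissue also expresses, measured 10.28 and 9.76 in Gcnf-/- embryos, against 8.85 and 9.33 in wt embryos (log2 fold change 0.93, adjusted p = 0.122), and Hand1 had a log2 fold change of 0.25 (adjusted p = 0.246); the list median was 0.04, and 0.25 on brighter probe sets. Identity markers of the E9 embryo, 6 of 11 of them above wt, averaged 9.44 and 9.38 in Gcnf-/- embryos, against 9.39 and 9.39 in wt embryos. By the same unadjusted p 5 were higher and 2 lower. The means of the erythroid, the heart muscle, and the trophoblast and decidua markers were all lowest in wt replicate 1, as were most members. The part of each cell type in the member values was not tested.

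Across the series, arrays of 1 genotype correlated at 0.9975 (Gcnf-/-) and 0.9973 (wt) over all probe sets, and arrays of different genotype at 0.9931 to 0.9952. The 5 probe sets of Nr6a1 itself had log2 fold changes of 0.05 to 0.56, none of them with an adjusted p of 0.05 or lower. The brightest measured 11.87 and 12.14 in Gcnf-/- embryos, against 11.53 and 11.80 in wt embryos. Whether these probes lie in the mutated part of Nr6a1 could not be settled, so they do not check the genotype labels.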

How the data were processed

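The authors hybridised labelled RNA from 4 whole embryos to Affymetrix GeneChip mouse arrays and deposited log2 signals computed by RMA (robust multi-array average), which subtracts background, equalises the distributions of the arrays and summarises the probes of each probe set. The RMA version and chip annotation were not stated. Equalising removes any change shared by most transcripts. Precision is limited by the number of arrays.

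Of 45101 probe sets, 64 controls were left out. Gcnf-/- and wt embryos were compared with limma 3.58.1 (R 4.3.3, lmFit and eBayes, no covariate), with thresholds of adjusted p 0.05 and 2-fold, as in the study's methods. The prior SD was 0.0849 log2 units on 3.16 degrees of freedom, beside 2 from the arrays. Probe sets were named by the platform annotation where it gave 1 symbol (34945, or 77.6%; 932 had several and 9160 none), and 34741 of these matched RefSeq. The brightest probe set represented a gene in the lists. The fit was also run on simulated data with known changes. At both thresholds it called 40% of planted log2 changes of 1 and 90% of those of 1.5.

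All member probe sets are named. Of the genes in the other lists, those that rose or fell are named, with some partners and regulators of members, some abundant targets and some further genes. The members and lists were chosen with earlier results of these data known. Replicate numbers were given by the labels, but the deviations of same-numbered arrays correlated at 0.06, and nothing pairs them. Alternatives were leaving out each array, a replicate block, brighter probe sets, repeated quantile normalisation, median centring, an intensity trend, robust eBayes, no fold threshold, no probe sets with suffix _x_at or _s_at, and other representative probe sets. Promoters are RefSeq windows on GRCm38.p6.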

Additional observations from a re-analysis of the deposited data

Results flagged for a closer look

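The 18S ribosomal RNA control probe sets, which took no part in the comparisons, differed by 1.06 on the log2 scale between genotypes. They averaged 10.83 and 10.74 in Gcnf-/- embryos, against 9.45 and 9.99 in wt embryos. The poly-A spike probe sets, RNAs added before amplification, averaged 8.95 in Gcnf-/- replicate 2 and slightly more in Gcnf-/- replicate 1, against 8.38 and 8.97 in wt embryos. Wt replicate 1 was lowest in both sets, as it was on Ddit4, Egln3 and Bnip3. Their part in the member values was not tested.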

How the results depend on the processing

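Over all probe sets limma called 137 higher and 35 lower, including 2 members. Leaving out 1 array gave 0 to 7 higher, 0 to 2 lower and 0 members; the lone embryo of a genotype is then assumed to vary like the others. With the replicate block 0 were called higher and 0 lower, members included (Ddit4 adjusted p = 0.160), and 8358 probe sets had an unadjusted p under 0.05, against 9046 without it. Of the 19 members 15 had an unadjusted p under 0.05 with and without the replicate block, and 13 to 15 without 1 array. Without a fold threshold 324 were called higher, 115 lower and 5 members. With an intensity trend 199 were called higher and 61 lower, with 5 members among those called higher. Keeping brighter probe sets gave 5 members, and repeated quantile normalisation and median centring 4 members each. The members gained in these last 4 settings were probe sets of Egln3 and Adm, and without a fold threshold those of Ndrg1, Bnip3 and P4ha1. Robust eBayes, and leaving out probe sets with suffix _x_at or _s_at, gave 2 members. Members other than Vegfa lay above wt in each of these settings. The Ddit4 log2 fold change ran from 2.04 to 2.54, while its adjusted p was 0.00222 with an intensity trend and 0.206 without Gcnf-/- replicate 2.

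The limits are those of 2 embryos per genotype. Members near a 2-fold difference (Egln3, Adm and Ndrg1) passed or missed the thresholds by small margins. The deposited values carry no detection call, so the background in the signal of dim members such as Car9 was not measured. The median of the HIF subunits and regulators was -0.03 by the brightest probe set, 0.04 by the mean over probe sets and 0.11 by the smallest p. By the smallest p the median was 0.28 for p53 targets, 0.29 for glucocorticoid and FoxO responsive genes and 0.11 for the members' relatives and partners. For the members it was 0.75 by the smallest p and 0.62 by the mean over probe sets. Without probe sets with suffix _x_at or _s_at the members' median was 0.61. Ndrg1 was then at 0.41 and did not rise (adjusted p = 0.124 by limma).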
